A study of Mus musculus with 18 samples.

Results

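Foxo1, Foxo3, Foxo4 and Foxp1 encode forkhead transcription factors of 2 related branches, and these 4 genes were followed across pro-B cells that lack either of 2 B-lineage regulators. They were taken by symbol from the 24072 genes of the authors' RNA table, and all 4 passed the filter on low values. Of 14377 EBF1 or PAX5 binding sites with an accessibility value, the 27 that the authors' annotation assigns to a member by its nearest start site were taken as well. Foxo1 has 12 of them, Foxp1 11, Foxo3 4 and Foxo4 none.

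Pro-B cells had been purified from mouse fetal liver (strain C57BL6/J) and expanded on OP9 stromal cells with interleukin-7, FLT3 ligand and KIT ligand. The groups were wild type (WT), Ebf1-/- (Ebf1-KO) and Pax5-/- (Pax5-KO), and every group had the same stroma and cytokines. RNA-seq and ATAC-seq, which reads open chromatin through transposase insertion, each had 3 libraries per genotype, 18 in all. Nothing in the labels says whether libraries came from separate fetuses or cultures, so each p-value speaks only of the spread among these libraries, which may be technical.

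FOXO proteins are switched by location. When AKT is active it phosphorylates them, and they are held in the cytoplasm by adaptor proteins; when AKT signalling falls they enter the nucleus and activate genes of recombination, homing, cell cycle arrest and survival. FOXO1 is known as the main FOXO factor of early B cells, where it acts together with EBF1 on genes such as Rag1, Rag2, Il7r and Blnk. FOXP1, of the other branch, is known as a factor needed for normal early B cell development.

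RNA levels are exon reads per 10 M mapped reads, and libraries held 27.3 to 89.1 M mapped reads. Each fold change is a log2 difference of value + 1 between group means, given less the median over all 12839 tested genes, which was 0.31 for Ebf1-KO over WT, 0.28 for Pax5-KO over WT and 0.05 for Ebf1-KO over Pax5-KO. The p-values test the change before that subtraction, and a gene passed at a limma adjusted p under 0.05. The share of mapped reads in exons was 47.0 to 59.3% in WT, 60.5 to 69.8% in Ebf1-KO and 55.5 to 71.4% in Pax5-KO. Pax5 RNA fell from 1521 ± 179 in WT to 109 ± 17.5 in Pax5-KO and, lower still, to 13.1 ± 3.96 in Ebf1-KO (SD, n = 3). Ebf1 was at 3969 ± 634 in WT, at 1465 ± 131 in Ebf1-KO, and at 1515 ± 170 without PAX5. Whole-gene counts cannot show whether the deleted part was missing.

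The cells also differed in lineage markers. The 10 pro-B markers summed to 34903 to 36825 in WT, with 9102 to 9737 in Ebf1-KO and 17927 to 24007 in Pax5-KO. Without EBF1 7 of these markers fell (14.4% of all genes did) and 2 rose (40.8% of all), and Vpreb3 alone was at 0. Without PAX5 8 fell (11.9% of all) and 1 rose (34.7% of all). The summed level of 10 T and innate lymphoid markers was 10.6 to 11.5 in WT, with 1916 to 2120 in Ebf1-KO and 85.2 to 160.4 in Pax5-KO, and that of 10 myeloid markers 9.51 to 21.03, 1497 to 1725 and 201 to 269. The 11 stromal markers summed to 139 to 323, 393 to 468 and 82.0 to 239; Dcn was at 0 in every library, and Pdgfrb alone was at 373 in Ebf1-KO. In bulk samples fewer cells of a type and less RNA per cell cannot be told apart, and the part of cell makeup in the results below was not tested.

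Foxo1 and Foxo3 moved in opposite directions, and most in the absence of EBF1. Foxo1 fell 80.1-fold in Ebf1-KO and 4.16-fold in Pax5-KO, while Foxo3 was 2.37-fold higher in Ebf1-KO. Foxp1 was 1.40-fold higher in Ebf1-KO, and Foxo4 did not pass in any comparison. By count, 3 of 4 members passed in Ebf1-KO over WT (55.3% of all tested genes did), 2 as higher (40.8% of all) and 1 as lower (14.4%). In Pax5-KO over WT 3 passed (46.5%), again 2 higher (34.7%) and 1 lower (11.9%), and between the knockouts 2 passed (30.9%), 1 higher (17.5%) and 1 lower (13.3%). A count of 4 genes is too small to read against these shares.

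**Figure D1:**
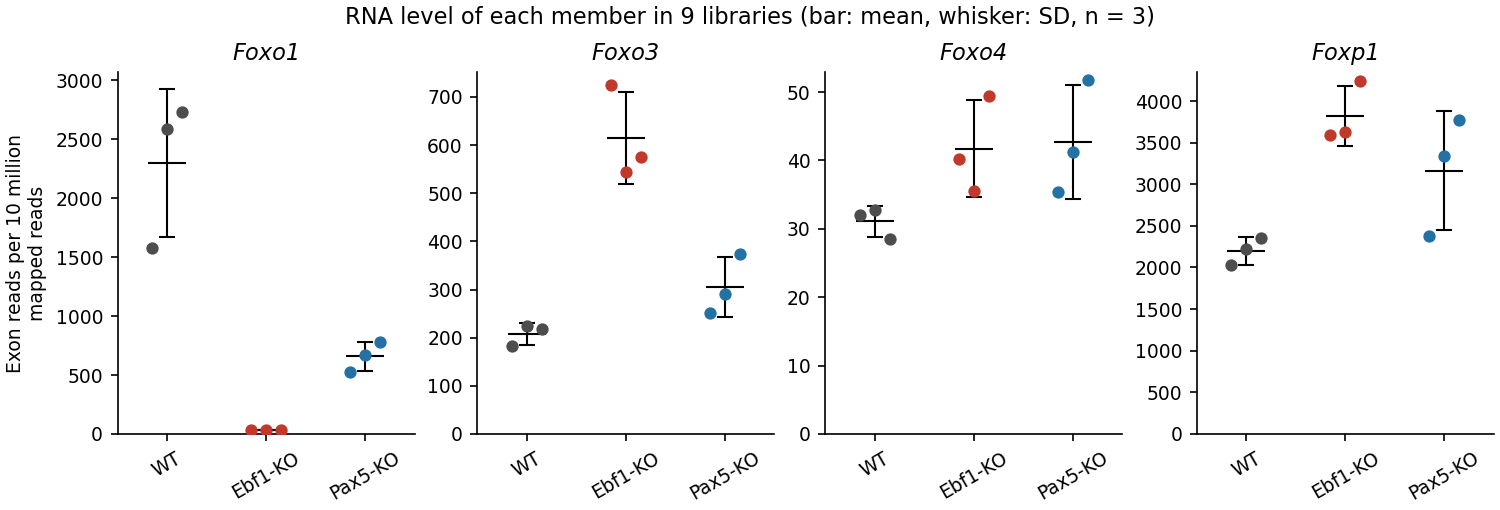
Exon reads per 10 M mapped reads (vertical axis, linear, separate scale per gene) of Foxo1, Foxo3, Foxo4 and Foxp1 in 3 WT, 3 Ebf1-KO and 3 Pax5-KO libraries; points are libraries 1 to 3 from left to right, bars the mean and whiskers the SD. Foxo1 lies at 32.1 to 34.4 in Ebf1-KO, below every other library, whereas Foxo3 is highest there.

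Foxo1 (NM_019739, mm10 chr3:52268337-52350109, plus strand) encodes the factor that drives Rag transcription in early B cells. Its level was 1581, 2583 and 2730 in the WT libraries, 34.1, 34.4 and 32.1 in the Ebf1-KO libraries and 529.5, 669 and 777 in those of Pax5-KO. The 3 genotypes did not overlap, and WT 1, the lowest WT library, was also the one with the lowest exon share. Without EBF1 the log2 fold change was -6.32 (SE 0.20, limma adjusted p = 1.14e-12), and without PAX5 it was -2.06 (SE 0.20, adjusted p = 2.44e-06). Foxo1 was lower in Ebf1-KO than in Pax5-KO as well (-4.29, SE 0.20, adjusted p = 1.72e-10). Ebf1-KO still held 94 to 186 Foxo1 reads per library, so the residual level is above the limit that a count of 0 would set. The authors' deposited table lists Foxo1 at -6.40 in Ebf1-KO and -2.05 in Pax5-KO.

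Foxo3 (NM_019740, chr10:42185786-42276742, minus strand) encodes a factor best known for control of quiescence and cell death. It stood at 182, 224 and 219 in WT, 724, 544 and 576 in the Ebf1-KO libraries and 251, 291 and 374 in those of Pax5-KO. Here too the genotypes did not overlap, but the order was the reverse of that of Foxo1. The rise in Ebf1-KO was 1.24 (SE 0.17, limma adjusted p = 1.46e-06), and Ebf1-KO exceeded Pax5-KO by 0.97 (SE 0.17, adjusted p = 0.000198). In Pax5-KO over WT Foxo3 was higher by 0.26 (SE 0.17), with a 95% interval that spans 0 (-0.11 to 0.62). It passed on the change before the median was subtracted (0.54, limma adjusted p = 0.0184). That last call was lost with TMM scaling (adjusted p = 0.0849) and with edgeR (0.0857), and without WT 1 (0.0738) or Pax5-KO 3 (0.0748). The authors' deposited table lists Foxo3 for Ebf1-KO alone, at 1.26, and its lists hold no change smaller than 1.00.

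Foxo4 (NM_018789, chrX:101254528-101260873, plus strand), an X-linked member of the same branch, had the lowest level of the 4 in WT and in Pax5-KO. Its level was 31.97, 32.8 and 28.5 in WT, 40.2, 35.5 and 49.5 in the Ebf1-KO libraries and 35.3, 41.2 and 51.7 in those of Pax5-KO. All 6 knockout libraries lay above the 3 WT libraries, but by little. Relative to the median gene the change was 0.10 in Ebf1-KO (95% interval -0.34 to 0.53, limma adjusted p = 0.105) and 0.15 in Pax5-KO (-0.28 to 0.59, adjusted p = 0.0923). With the replicate number as a block both passed (adjusted p = 0.0495 and 0.0391), as did Pax5-KO without Pax5-KO 1 (0.0478); with quantile normalization the value in Ebf1-KO was -0.04, and without WT 3 likewise -0.04. Xist, the X-inactivation RNA, was at 41026 to 47861 in Ebf1-KO and at 1.59 to 42.8 in the other libraries, while Y-linked Uty was at 403 ± 15.4 in WT, 543 ± 34.9 in Pax5-KO and 0.60 ± 0.43 in Ebf1-KO. For the RNA of Ebf1-KO, sex and genotype therefore cannot be told apart. Uty did not pass in Pax5-KO over WT (limma adjusted p = 0.0786), but did with the replicate number as a block (0.0175).

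Foxp1 (NM_053202, chr6:98925342-99435345, minus strand) was abundant in every library. It was at 2027, 2218 and 2350 in WT, 3595, 3627 and 4235 in the Ebf1-KO libraries and 2372, 3343 and 3773 in those of Pax5-KO. Ebf1-KO lay above WT throughout, and Pax5-KO spread from the edge of WT into the range of Ebf1-KO. Loss of EBF1 went with a log2 fold change of 0.49 (SE 0.17, limma adjusted p = 0.000821). Loss of PAX5 went with one of 0.22 (SE 0.17), with a 95% interval that spans 0 (-0.13 to 0.57). Foxp1 passed there on the change before the median was subtracted (0.50, limma adjusted p = 0.0228). The call in Pax5-KO was lost with TMM scaling (adjusted p = 0.0624), edgeR (0.0533) and DESeq2 (0.0525), and without WT 1 (0.0692), WT 2 (0.0598), Pax5-KO 2 (0.0868) or Pax5-KO 3 (0.0979). Ebf1-KO over Pax5-KO did not pass (0.25, adjusted p = 0.215), but did with the replicate number as a block (0.0288).

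Levels of different genes were compared per kilobase of transcript. In WT the order was Foxo1 (414 ± 113), Foxp1 (307 ± 22.7), Foxo3 (72.3 ± 7.97) and Foxo4 (9.85 ± 0.71), and the first 2 overlapped in their libraries. In Ebf1-KO it was Foxp1 (534 ± 50.4), Foxo3 (213 ± 33.4), Foxo4 (13.2 ± 2.25) and Foxo1 (6.05 ± 0.23), with no overlap between neighbours, so that Foxo1 went from first to last. In Pax5-KO Foxp1 (442 ± 100.3) led, Foxo1 (119 ± 22.4) and Foxo3 (106 ± 21.7) overlapped, and Foxo4 (13.5 ± 2.64) was last.

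The makeup of the FOXO transcripts differed between genotypes accordingly. Of the per-kilobase sum of Foxo1, Foxo3 and Foxo4, Foxo1 took 83.0 ± 3.03% in WT, 49.9 ± 1.35% in Pax5-KO and 2.63 ± 0.37% in Ebf1-KO. Foxo3 took 14.9 ± 2.37%, 44.4 ± 1.24% and 91.6 ± 1.36% in the same order. The sum itself was 496 ± 120.2 in WT, 238 ± 46.3 in Pax5-KO and 232 ± 33.4 in Ebf1-KO, so both knockouts lay at a like level with different members behind it. Foxo6, the other FOXO gene, stayed below the filter: it was at 1.68, 6.34 and 2.86 in WT, at 0 in all 3 Ebf1-KO libraries, and at 0, 0 and 0.45 in Pax5-KO. The authors' deposited table lists it as lower in both, at -7.03 in Ebf1-KO and -3.99 in Pax5-KO, with 6 to 18 reads per WT library.

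**Figure D2:**
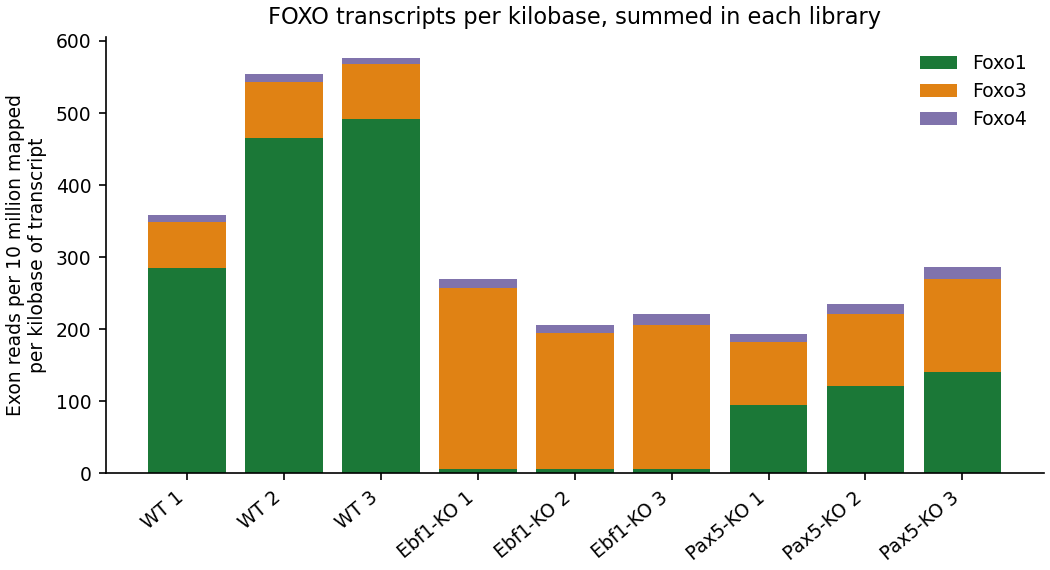
Stacked bars give, for each of 9 RNA libraries (horizontal axis), the exon reads per 10 M mapped reads per kilobase of transcript of Foxo1, Foxo3 and Foxo4 (vertical axis, from 0). Foxo1 fills most of the WT bars, Foxo3 nearly all of the Ebf1-KO bars, and both share the Pax5-KO bars.

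Related forkhead genes gave a frame for the members. Of the other FOXP genes, Foxp4 fell in Ebf1-KO (134 ± 17.3 to 79.7 ± 14.5, log2 fold change -1.06) and in Pax5-KO (92.6 ± 25.9, -0.84; limma adjusted p = 0.0418, and 0.137 without WT 2, 0.1002 without WT 3, 0.0551 without Ebf1-KO 1, 0.159 without Pax5-KO 1 and 0.0979 without Pax5-KO 2). Foxp3 was at 59.0 ± 3.55, 67.2 ± 1.81 and 72.0 ± 13.3 in WT, Ebf1-KO and Pax5-KO and did not pass, and Foxp2 was near 0. Of 31 further forkhead genes 11 could be tested. In Ebf1-KO 1 was higher (40.8% of all genes were) and 2 lower (14.4%), and in Pax5-KO 2 were higher (34.7%) and 2 lower (11.9%). TMM scaling gave 1 and 4, and 2 and 5 (3852 and 3609, and 3324 and 3075, of all 12839 genes). The replicate block gave 3 and 3, and 4 and 4 (6549 and 2234, and 6111 and 1962, of all). The list median was -0.18 and -0.35. Foxc1 fell from 97.1 ± 3.93 to 0.47 ± 0.41 in Ebf1-KO and 0.64 ± 0.36 in Pax5-KO. Foxf1 rose from 1.08 ± 0.60 to 227 ± 68.7 and 100.3 ± 23.2. Foxj2 rose in Pax5-KO alone among the comparisons with WT (62.4 ± 6.62 to 117.6 ± 15.8, 0.62), and with the block it passed in Ebf1-KO too (adjusted p = 0.0317).

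Genes whose RNA pattern was most like that of a member were sought among 8670 others with a mean of at least 50, by Pearson's r of log2(value + 1) over 9 libraries, which share 3 genotypes. For Foxo1 they were Prkcb (r = 0.998), a protein kinase C of B cell receptor signalling, Amotl1 (0.997) and Sdc4 (0.997). For Foxo3 they were B630005N14Rik (0.993), Nt5dc1 (0.992) and Tbc1d22a (0.992), and for Foxp1 Ralgapa2 (0.990), Taf13 (0.986) and Sft2d3 (0.983). Foxo4 had the weakest matches, Ten1 (0.969), Pdss2 (0.951) and Egln2 (0.950).

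The binding sites were examined next. EBF1 and PAX5 sites came from published ChIP data re-analysed by the authors and were split into EBF1-only, PAX5-only and shared. Accessibility is ATAC tags per 10 M in each library, which held 15.3 to 38.6 M tags. Over all 14365 tested sites the median log2 fold change was -0.78 in Ebf1-KO over WT, -0.75 in Pax5-KO over WT and -0.02 between the knockouts, and changes below are given less this median. As for RNA, the p-values test the change before that subtraction. Most sites called in either knockout were therefore called lower: 471 rose and 7346 fell in Ebf1-KO, 303 and 7405 in Pax5-KO. With TMM scaling the split was 2913 and 4266, and 1970 and 3047, and between the knockouts 1301 higher and 1816 lower became 1851 and 2225. The RNA split moved too, from 5240 higher and 1855 lower to 3852 and 3609 in Ebf1-KO and from 4451 and 1525 to 3324 and 3075 in Pax5-KO.

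Among the members' 27 sites, 17 passed in Ebf1-KO (54.4% of all tested sites did) and 12 in Pax5-KO (53.7%). All were lower (51.1% and 51.5% of all sites), and none rose (3.28% and 2.11% of all). With TMM scaling 12 fell and 4 rose in Ebf1-KO (4266 and 2913 of all 14365 sites). In Pax5-KO 7 fell and 1 rose with it (3047 and 1970 of all). By the deposited scaling 11 sites fell in both knockouts, 6 in Ebf1-KO alone, 1 in Pax5-KO alone and 9 in neither; of all tested sites the shares were 39.6%, 11.5%, 11.9% and 36.9%. Between the knockouts 8 passed (21.7% of all), 6 with Ebf1-KO lower (12.6% of all) and 2 with it higher (9.06% of all). Both shared sites fell in both knockouts and were lower in Ebf1-KO than in Pax5-KO. Counts among 27 sites are too small to read against these shares, and the single sites carry the description.

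**Figure D3:**
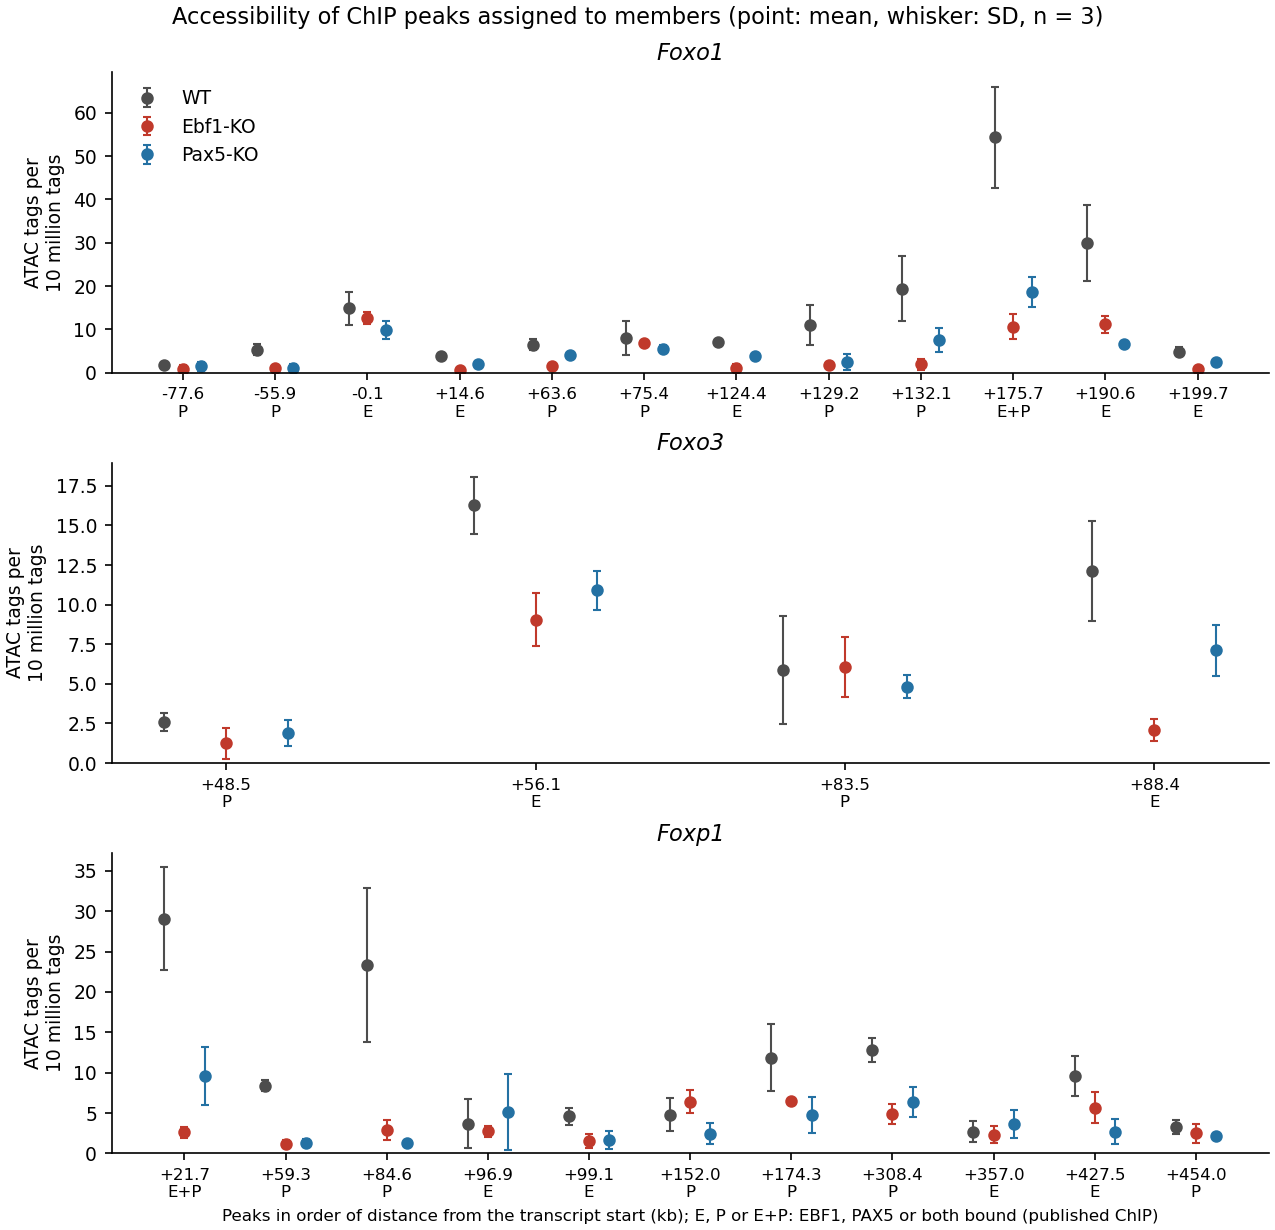
ATAC tags per 10 M tags (vertical axis, linear) at the 27 EBF1 and PAX5 sites assigned to Foxo1, Foxo3 and Foxp1, ordered by distance in kb from the transcript start (horizontal axis, not to scale); points are the mean and whiskers the SD of 3 libraries per genotype. At Foxo1 the promoter site lies at 12.7 in Ebf1-KO against 14.8 in WT, while the sites from 124.4 kb on are lower, and at Foxp1 the sites of highest WT signal, at 21.7 and 84.6 kb, are lower in both knockouts.

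At Foxo1 the sites far downstream were less accessible in Ebf1-KO, while the promoter site, chosen for the text after its values were seen, did not pass. The promoter site (chr3:52268133-52268403, EBF1-only) was at 17.6, 10.5 and 16.3 in WT, 12.9, 13.9 and 11.2 in the Ebf1-KO libraries and 10.6, 11.4 and 7.38 in those of Pax5-KO. Its groups overlapped, and its change was 0.59 in Ebf1-KO (95% interval 0.05 to 1.13) and 0.20 in Pax5-KO (-0.34 to 0.74). Before the median was subtracted, the changes were -0.19 (limma adjusted p = 0.585) and -0.54 (adjusted p = 0.0832). With TMM scaling the site passed as higher in Ebf1-KO (adjusted p = 0.013). All 6 Foxo1 sites between 124.4 and 199.7 kb from the start, which lie beyond the end of the gene and before Cog6, the next coding gene, fell in Ebf1-KO. In all, 9 of 12 Foxo1 sites fell in Ebf1-KO (51.1% of all sites did) and 5 in Pax5-KO (51.5% of all). With TMM scaling 8 fell and 2 rose in Ebf1-KO (4266 and 2913 of all 14365 sites), and 3 fell in Pax5-KO (3047 of all).

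The strongest Foxo1 site, in the shared class, lies 175.7 kb from the start (chr3:52443859-52444253, intergenic) and had a higher WT signal than 97.9% of all sites. It was at 64.7, 41.6 and 56.7 in WT, 12.1, 7.26 and 12.5 in the Ebf1-KO libraries and 19.4, 21.7 and 14.8 in those of Pax5-KO. The 3 genotypes did not overlap and stood in the order of Foxo1 RNA. The change was -1.48 in Ebf1-KO (SE 0.27, limma adjusted p = 3.13e-12), -0.74 in Pax5-KO (SE 0.27, adjusted p = 1.29e-06) and -0.75 between the knockouts (adjusted p = 0.0246). The call between the knockouts was lost without Ebf1-KO 2 (0.251), Pax5-KO 1 (0.0589) or Pax5-KO 2 (0.143). The plus strand of the central 240 bases (mm10 chr3:52443936-52444175) is shown because this site carries the highest signal of any member site.
Foxo1 shared site: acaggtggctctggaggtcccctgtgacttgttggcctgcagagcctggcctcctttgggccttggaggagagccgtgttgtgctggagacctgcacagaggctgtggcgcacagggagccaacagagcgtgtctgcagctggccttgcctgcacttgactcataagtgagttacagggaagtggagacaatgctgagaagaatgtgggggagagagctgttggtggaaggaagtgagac

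The neighbouring site at 190.6 kb (chr3:52458774-52459044, EBF1-only) had the opposite order of the knockouts. Its signal was 37.2, 20.2 and 32.1 in WT, 10.9, 9.38 and 13.1 in the Ebf1-KO libraries and 6.70, 5.83 and 7.38 in those of Pax5-KO. It fell in both (-0.53 and -1.23 less the median), the fall in Ebf1-KO was lost with TMM scaling (adjusted p = 0.0777), edgeR (0.0519) and DESeq2 (0.209), and the direct contrast did not pass (0.69, adjusted p = 0.0676), though it did with TMM scaling (0.0219). The largest Foxo1 fall was at 132.1 kb (chr3:52400333-52400581, PAX5-only), with 28.1, 15.1 and 15.02 in WT, 1.56, 0.91 and 3.20 in the Ebf1-KO libraries and 10.6, 5.30 and 6.52 in those of Pax5-KO. Only PAX5 was called there, and Ebf1-KO was the lower of the knockouts (-1.56, SE 0.31, limma adjusted p = 4.64e-05). Pax5 RNA was also lower in Ebf1-KO (13.1 ± 3.96) than in Pax5-KO (109 ± 17.5), and its part in this change was not tested. In Pax5-KO this site changed by -0.51 (95% interval -1.14 to 0.11). It passed as lower on the change before the median was subtracted (limma adjusted p = 0.000429). The call was lost with TMM scaling (0.316), edgeR (0.271) and DESeq2 (0.432).

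Beside it, at 129.2 kb (chr3:52397395-52397643, PAX5-only), the signal was 11.0 ± 4.65 in WT, with 1.85 ± 0.70 in Ebf1-KO and 2.44 ± 1.93 in Pax5-KO, lower in both knockouts (-1.25 and -1.13; the call in Pax5-KO was lost with DESeq2, adjusted p = 0.076). The site at 124.4 kb (chr3:52392572-52392842, EBF1-only) fell in Ebf1-KO (7.11 ± 0.35 to 1.16 ± 0.82, -1.20) and was lower there than in Pax5-KO (3.92 ± 0.05; -1.24, adjusted p = 0.00496, and 0.0765 without Ebf1-KO 3). In the first intron, 63.6 kb from the start (chr3:52331826-52332074, PAX5-only), the signal was 6.49 ± 1.24 in WT, with 1.51 ± 0.74 in Ebf1-KO and 4.02 ± 0.56 in Pax5-KO; it fell in Ebf1-KO (-0.82) but not with DESeq2 (adjusted p = 0.0857), and was lower than in Pax5-KO (-1.01, adjusted p = 0.0229), a call lost without Ebf1-KO 2 (0.118), Ebf1-KO 3 (0.071), Pax5-KO 1 (0.0775) or Pax5-KO 2 (0.0641). Upstream at -55.9 kb (chr3:52212268-52212516, PAX5-only) both knockouts were lower (5.34 ± 1.28 to 1.02 ± 0.36 and 1.14 ± 0.77), and with DESeq2 neither passed (adjusted p = 0.0913 and 0.131), nor Pax5-KO with TMM scaling (0.0511). Reads at these weaker sites were few, down to 1 in a library, which limits the precision of each value.

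Foxp1 RNA was higher in Ebf1-KO, and its sites of highest WT signal, in the first intron, were less accessible. The shared site 21.7 kb from the start (chr6:99413544-99413840) was at 35.9, 23.4 and 28.0 in WT, 1.95, 3.33 and 2.56 in the Ebf1-KO libraries and 8.82, 13.5 and 6.52 in those of Pax5-KO. No genotypes overlapped. It fell by 2.27 in Ebf1-KO on the log2 scale (SE 0.29, limma adjusted p = 2.12e-16) and by 0.79 in Pax5-KO (SE 0.29, adjusted p = 3.25e-06; 0.132 with DESeq2), and was lower in Ebf1-KO than in Pax5-KO (-1.50, adjusted p = 1.63e-05). It is shown (plus strand, mm10 chr6:99413572-99413811) as the Foxp1 site with the highest WT signal.
Foxp1 shared site: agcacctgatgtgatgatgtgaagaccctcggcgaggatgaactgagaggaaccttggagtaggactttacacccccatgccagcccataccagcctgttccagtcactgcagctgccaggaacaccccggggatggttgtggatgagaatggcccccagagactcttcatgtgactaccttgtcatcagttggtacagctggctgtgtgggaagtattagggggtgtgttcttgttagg

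The site at 84.6 kb (chr6:99350593-99350841, PAX5-only) had the largest fall of all member sites. It went from 32.01, 13.1 and 24.9 in WT to 4.28, 2.42 and 1.92 in the Ebf1-KO libraries and 1.06, 1.06 and 1.74 in those of Pax5-KO. All knockout libraries lay below all WT libraries, Pax5-KO lowest. Ebf1-KO changed by -1.83 (SE 0.33, limma adjusted p = 7.85e-11), Pax5-KO by -2.59 (SE 0.33, adjusted p = 8.76e-15), and the difference between the knockouts did not pass (0.75, 95% interval 0.09 to 1.41, adjusted p = 0.111). For this size it is shown too (plus strand, mm10 chr6:99350597-99350836).
Foxp1 PAX5-only site: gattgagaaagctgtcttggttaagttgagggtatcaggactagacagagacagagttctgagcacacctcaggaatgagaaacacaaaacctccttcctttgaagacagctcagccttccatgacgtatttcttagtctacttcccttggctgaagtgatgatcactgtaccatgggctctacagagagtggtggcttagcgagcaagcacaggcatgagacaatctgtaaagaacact

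Another site of the first intron, at 59.3 kb (chr6:99375900-99376148, PAX5-only), fell in both knockouts, from 8.39 ± 0.70 to 1.15 ± 0.49 (-1.37) and 1.26 ± 0.53 (-1.33). Of the 8 other Foxp1 sites, 2 passed between the knockouts. They lie 152.0 and 427.5 kb from the NM_053202 start, but at -16.8 and 20.5 kb from the nearest start by the deposited distance. At 152.0 kb (chr6:99283208-99283456, PAX5-only) neither differed from WT by the deposited scaling (4.79 ± 2.02 in WT, 6.43 ± 1.39 in Ebf1-KO, 2.43 ± 1.32 in Pax5-KO), but Ebf1-KO exceeded Pax5-KO by 1.19 (adjusted p = 0.00862; 0.077 without Pax5-KO 3), and with TMM scaling it also exceeded WT (adjusted p = 0.0053). At 427.5 kb (chr6:99007710-99007980, EBF1-only) the signal fell in Pax5-KO (9.57 ± 2.503 to 2.70 ± 1.59, -0.85; lost with edgeR, adjusted p = 0.0936, and DESeq2, 0.199), and Ebf1-KO (5.67 ± 1.90) exceeded Pax5-KO by 0.95 (adjusted p = 0.0335; 0.0546 with edgeR, 0.21 without Ebf1-KO 2 and 0.374 without Pax5-KO 3). With TMM scaling 3 of 11 Foxp1 sites fell in Ebf1-KO (4266 of all 14365 sites) and 4 in Pax5-KO (3047 of all). By the deposited scaling 7 fell in Pax5-KO (51.5% of all sites did) and 6 in Ebf1-KO (51.1% of all). One of the 6, at 174.3 kb, fell no more than the median site (0.05); it was named after its values were seen.

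Foxo3, whose RNA rose, had 1 site that fell in Ebf1-KO beyond the median. It lies in intron 3 (chr10:42188247-42188517, EBF1-only), 88.4 kb from the start, and was at 14.4, 8.55 and 13.5 in WT, 1.56, 1.82 and 2.88 in the Ebf1-KO libraries and 8.82, 6.89 and 5.65 in those of Pax5-KO. Ebf1-KO lay below both other groups. The change was -1.30 in Ebf1-KO (SE 0.31, limma adjusted p = 1.2e-08), with 0.06 in Pax5-KO (adjusted p = 0.0579) and -1.38 in Ebf1-KO over Pax5-KO (adjusted p = 0.000311).

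The strongest Foxo3 site, in intron 2 (chr10:42220554-42220824, EBF1-only), was at 17.0, 14.2 and 17.6 in WT, 8.57, 10.9 and 7.68 in the Ebf1-KO libraries and 12.0, 11.1 and 9.56 in those of Pax5-KO. It passed as lower in Ebf1-KO (adjusted p = 0.00922), with a change equal to that of the median site to within 0.01 (-0.01), and with TMM scaling it did not pass (0.884). The other 2 sites, at 48.5 and 83.5 kb (chr10:42228127-42228375 and chr10:42193090-42193338, both PAX5-only), did not pass in any comparison; with TMM scaling the second passed as higher in Ebf1-KO (adjusted p = 0.015, with 6.07 ± 1.90 against 5.87 ± 3.44 in WT). The intron 2 site is shown as the Foxo3 site with the highest WT signal (plus strand, mm10 chr10:42220569-42220808).
Foxo3 EBF1-only site: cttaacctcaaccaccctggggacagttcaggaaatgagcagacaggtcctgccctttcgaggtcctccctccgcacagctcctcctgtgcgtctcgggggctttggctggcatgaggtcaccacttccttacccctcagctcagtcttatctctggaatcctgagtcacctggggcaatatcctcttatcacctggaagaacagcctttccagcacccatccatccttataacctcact

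Each site's central 240 bases, in 14372 sites of the genome, were searched on both strands for the EBF1 palindrome (TCCC, any 2 bases, GGGA), the string GCGTGAC found in PAX5 sites, and the forkhead string GTAAACA. The windows printed above hold none of the 3, so they carry no capitals. Among the 27 member sites 3 hold the EBF1 palindrome (16.1% of all windows do), 1 the PAX5 string (3% of all) and 2 the forkhead string (3.3% of all). The palindrome was in 26.6% of EBF1-only, 12.8% of shared and 0.755% of PAX5-only windows. The 5 sites with a match are shown with 10 flanking bases and the match in capitals, since they show which member sites hold a string that either factor, or a forkhead factor, is known to read. In order, the lines come from the Foxo1 promoter site (chr3:52268235-52268264), the Foxo1 sites at 14.6 kb (chr3:52283008-52283037) and 129.2 kb (chr3:52397529-52397555), the Foxp1 site at 96.9 kb (chr6:99338372-99338401, then chr6:99338510-99338536) and the Foxp1 site at 152.0 kb (chr6:99283311-99283337).
Foxo1 promoter, EBF1 palindrome: tactgccgccTCCCGAGGGAaggcagcgcc
Foxo1 first intron, EBF1 palindrome: agggcatgggTCCCCGGGGActagagttac
Foxo1 downstream, forkhead string on the minus strand: gcatagttccTGTTTACcctaaattta
Foxp1 first intron, EBF1 palindrome: ccttgatttgTCCCCAGGGAccacatatca
Foxp1 first intron, forkhead string: taaggttcaaGTAAACAaagtttaact
Foxp1 second intron, PAX5 string on the minus strand: gccgacgtacGTCACGCttctgtggtt
The Foxo1 promoter site, which holds the palindrome, did not pass in Ebf1-KO, and the Foxo1 site at 14.6 kb, which holds it too, fell there (3.82 ± 0.64 to 0.64 ± 0.49; adjusted p = 0.000224, and 0.107 with DESeq2); it was named here for its match, after its values were seen. A match is a description of letters and not a site.

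Genes that FOXO factors are known to activate in lymphocytes moved in both directions. Of 13 tested genes of this list, 10 fell in Pax5-KO (11.9% of all genes did) and 2 rose (34.7% of all); the list median was -1.66. With TMM scaling 11 fell (3075 of all 12839 genes did). In Ebf1-KO 4 fell (14.4% of all) and 4 rose (40.8% of all), with a list median of -0.49. There 7 fell with TMM scaling (3609 of all 12839 genes did) and 6 with the replicate block (2234 of all). In Ebf1-KO over Pax5-KO 7 were higher (17.5% of all) and 2 lower (13.3% of all), with a list median of 0.47. The difference between the counts, and the part of the level of Foxo1 in these changes, were not tested. The list includes Ebf1 itself, and the comparisons with WT share the WT libraries.

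Il7r, the interleukin-7 receptor chain, was at 1821 ± 175 in WT, with 2079 ± 115 in Ebf1-KO and 869 ± 96.7 in Pax5-KO. It fell in Pax5-KO (-1.35, SE 0.13, limma adjusted p = 8.32e-06) and was higher in Ebf1-KO than in Pax5-KO (1.21, adjusted p = 1.6e-06). Rag2, a recombinase subunit, was at 682 ± 184, 456 ± 14.6 and 148 ± 69.7, and S1pr1, a homing receptor for lymphocyte egress, at 72.2 ± 2.63, 52.6 ± 3.39 and 23.2 ± 5.24. Both fell in Pax5-KO (-2.54 and -1.90), did not pass in Ebf1-KO (adjusted p = 0.0854 and 0.0618; 0.0276 and 0.0251 with the replicate block, and both were called lower there with TMM scaling) and were higher in Ebf1-KO than in Pax5-KO. Il7r, Rag2 and S1pr1 were chosen for the text after their values were seen.

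Blnk, the adaptor of pre-B receptor signalling, fell from 1151 ± 167 to 0.99 ± 0.34 in Ebf1-KO and 0.48 ± 0.58 in Pax5-KO. Rag1, the other recombinase subunit, had the order of Foxo1, with 1459 ± 643 in WT, 693 ± 117 in Pax5-KO (-1.28) and 201 ± 32.9 in Ebf1-KO (-3.09; -1.83 over Pax5-KO, limma adjusted p = 1.9e-05). Ctla4, an inhibitory receptor of T cells, rose in both, from 6.62 ± 4.59 to 95.6 ± 78.2 and 342 ± 41.7, beside the T and innate markers given above.

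FOXO targets of cell cycle, death and metabolism were split. Of 30 tested genes, 17 rose (40.8% of all genes did) and 7 fell (14.4% of all) in Ebf1-KO, with a list median of 0.29. With TMM scaling 14 rose and 8 fell there (3852 and 3609 of all 12839 genes did). On leaving out WT 2 or Ebf1-KO 3, 4 fell each time (1701 of 13151 and 1809 of 13045 genes). In Pax5-KO 12 rose (34.7% of all) and 7 fell (11.9% of all), with a list median of 0.01. There TMM scaling gave 7 and 9 (3324 and 3075 of all). With the replicate block 18 rose and 9 fell without EBF1 (6549 and 2234 of all). Without PAX5 the block gave 16 and 8 (6111 and 1962 of all). Cdkn1a, the inhibitor of cyclin-dependent kinases p21, rose from 161 ± 9.1 to 2474 ± 1126 in Ebf1-KO (3.54) and 846 ± 174 in Pax5-KO (2.09). Sesn2, a stress-induced brake on mTOR signalling, rose from 30.97 ± 7.42 to 217 ± 50.7 in Ebf1-KO (2.46) and less in Pax5-KO (49.7 ± 3.98, 0.41; adjusted p = 0.0643 with TMM scaling and 0.0759 without WT 1). Btg1, an antiproliferative gene, fell from 819 ± 20.8 to 175 ± 31.7 (-2.54) and 310 ± 58.0 (-1.69). Irs2, an insulin receptor substrate, fell from 19.0 ± 3.0 to 0.04 ± 0.06 in Pax5-KO; in Ebf1-KO it was at 9.77 ± 11.1 (-1.68, adjusted p = 0.025) and lost its call with edgeR (0.0773), DESeq2 (0.242) and on leaving out Ebf1-KO 2 (0.121), Ebf1-KO 3 (0.129), WT 1 (0.0918) or WT 2 (0.0547).

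Upstream regulators of FOXO proteins moved in both directions. Tested were 21 genes listed for the AKT axis or as kinases and phosphatases that act on FOXO proteins. The list also holds Pdk1, a pyruvate dehydrogenase kinase outside that axis, besides Pdpk1, the kinase that acts on AKT. Pdk1 is kept in all counts below and was among the genes that rose in Pax5-KO (limma adjusted p = 0.0132). In Ebf1-KO 5 of the 21 rose (40.8% of all genes did) and 5 fell (14.4% of all). In Pax5-KO 5 rose (34.7% of all) and 4 fell (11.9% of all). With TMM scaling these were 3 and 13 (3852 and 3609 of all 12839 genes), and 5 and 10 (3324 and 3075 of all). In Pax5-KO 8 rose with the block (6111 of all) and 8 without Pax5-KO 1 (5036 of 13173). With the block 7 fell without EBF1 (2234 of all) and 5 without PAX5 (1962 of all). The list median was -0.32 and -0.26. In Ebf1-KO 3 fell without Ebf1-KO 2 (1739 of 13127 genes did). In the same comparison 3 rose on leaving out WT 1, WT 2, Ebf1-KO 2, Ebf1-KO 3 or Pax5-KO 2 (4352 to 5107 of all). Sgk1, a kinase that phosphorylates FOXO proteins, parted the knockouts: from 49.3 ± 4.68 in WT it fell to 3.04 ± 1.42 in Ebf1-KO (-4.00) but rose to 155 ± 38.7 in Pax5-KO (1.33; -5.34 between the knockouts, limma adjusted p = 2.06e-10). Phlpp1, a phosphatase of AKT, fell most in Pax5-KO (389 ± 15.5 to 149 ± 12.6, -1.66); in Ebf1-KO (281 ± 77.8, -0.81, adjusted p = 0.0238) its call was lost on leaving out Ebf1-KO 2 (0.133), Ebf1-KO 3 (0.0836), WT 2 (0.0573) or WT 3 (0.0646). Stk3, an MST kinase that acts on FOXO proteins, fell in both (309 ± 14.3 to 139 ± 19.1 and 201 ± 22.5).

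Among 18 genes for acetylation, ubiquitin, adaptor binding and export of FOXO proteins, 5 rose (40.8% of all genes) and 0 fell (14.4%) in Ebf1-KO. In Pax5-KO 3 rose (34.7% of all) and 0 fell (11.9%). With TMM scaling 3 rose and 6 fell (3852 and 3609 of all 12839 genes), and 3 rose and 5 fell (3324 and 3075 of all). With the block 8 and 6 rose (6549 and 6111 of all). Without WT 1 3 rose and 1 fell in Ebf1-KO (4471 and 1928 of 13123 genes), while 1 rose in Pax5-KO (3368 of 13123). In Pax5-KO 1 rose without Pax5-KO 3 too (3430 of 13074). The list median was -0.08 and -0.15. Ywhag, an adaptor that holds phosphorylated FOXO proteins in the cytoplasm, rose in both knockouts (1067 ± 210 to 1933 ± 354, 0.55, and 1903 ± 624, 0.53). Mdm2, a ubiquitin ligase, rose in Ebf1-KO (922 ± 35.2 to 1472 ± 164, 0.36) and did not pass in Pax5-KO (959 ± 36.5). Ep300, an acetyltransferase, rose in Ebf1-KO (2061 ± 114 to 3043 ± 169, 0.26), and in Pax5-KO passed with the block only (adjusted p = 0.0084). Sirt2, a deacetylase, was higher in Ebf1-KO (183 ± 19.8 to 273 ± 25.2, 0.27) and Pax5-KO (295 ± 90.3, 0.36). The first call was lost with TMM scaling (adjusted p = 0.122) and without WT 1 (0.0913) or Ebf1-KO 3 (0.0847), the second without WT 1 (0.0702), Pax5-KO 2 (0.0607) or Pax5-KO 3 (0.0711).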

How the data were processed

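Samples were grouped by the genotype and number in their titles, and table columns were assigned through the library names they carry. The gene table holds the authors' signal, exon reads scaled to 10 M mapped reads with 1 transcript per gene, as its header states. The ATAC tables hold the authors' signal of tags per peak at the same scale. The peak score was deposited by the authors and served only to filter sites in an alternative. The other columns used, annotation and nearest gene, were deposited by the authors. Positions in kb were computed here from the start of each member's transcript named above, and are not the deposited distances to the nearest start. At Foxp1 these differ. Among others, the sites at 84.6, 152, 174.3 and 427.5 kb have deposited distances of -84.2, -16.8, 5.5 and 20.5 kb. Log2 fold changes and adjusted p-values of the authors' gene lists were deposited too. The submitters' processing notes name TopHat, Bowtie2, HOMER, edgeR, DESeq2 and mm10 (GRCm38); for versions and strand handling, nothing was given in the sources used here.

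The members, lists and tests were chosen with earlier results of these data known. Every value was a whole multiple of 1 read to within 0.1 reads, and the reads this gave served for filtering and for edgeR and DESeq2 as alternatives. Genes passed edgeR's filterByExpr (12839 of 24072), and 14365 of 14377 peaks had 10 reads or more in all. limma (trend) was fitted on log2(value + 1) with the authors' scaling, 9 libraries and 1 mean per genotype, with two-sided p-values adjusted over all features by Benjamini-Hochberg. The fit was tested on simulated data.

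RNA replicate numbers pair the libraries: same-numbered libraries deviated together in 9 of 9 pairs (r 0.116 to 0.439), and other pairs had r from -0.366 to 0.03. The fit without the block was kept, and the blocked value is given where it changed the call of a member or of a gene named against WT, and beside the counts of the FOXO lists.

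Genes named beside the members are Ebf1, Pax5, up to 4 called genes per list with the largest change and a mean of at least 10, all genes of lists of 5 or fewer, and the 3 most alike per member. Named sites are all those of a gene with up to 5, otherwise the one of highest WT signal per class and the 3 largest rises and falls per comparison. Exceptions are said to be chosen after their values were seen, and some genes that the rule names are not reported here, though list counts include them. Alternatives were other scalings, pseudocounts, filters, tools, samples and each library left out. Sequences were read from the RefSeq GRCm38.p6 genome. Statistics used limma 3.58.1, edgeR 4.0.16 and DESeq2 1.42.0 in R 4.3.3.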

Additional observations from a re-analysis of the deposited data

How the results depend on the processing

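Foxo1 kept its direction and its call in all 3 comparisons under every alternative run, as did Foxo3 in Ebf1-KO over WT and over Pax5-KO, and Foxp1 in Ebf1-KO over WT. The rise of Foxo3 in Pax5-KO lost its call at 0.246 with TMM scaling, 0.265 with quantile normalization, 0.249 with edgeR and 0.248 with DESeq2, and ranged from 0.208 to 0.315 with a library left out. That of Foxp1 in Pax5-KO lost its call at 0.210 with TMM scaling, 0.2145 with edgeR and 0.2146 with DESeq2 (0.146 to 0.343 with a library left out). Foxp1 in Ebf1-KO over Pax5-KO passed at 0.262 with quantile normalization, 0.248 with the replicate block and 0.243 with DESeq2. Foxo4 in Ebf1-KO was -0.0363 with quantile normalization and passed at 0.0952 with the replicate block (-0.0395 to 0.196 with a library left out), and in Pax5-KO it passed at 0.154 with the replicate block (0.0279 to 0.258). Among the members the block changed no other RNA call; over all genes it moved the RNA calls in Ebf1-KO over WT and over Pax5-KO from 7095 and 3962 to 8783 and 5622, and those higher and lower in Pax5-KO over WT from 4451 and 1525 to 6111 and 1962. ATAC replicate numbers share only a number (same-number r -0.052 to 0.11, other pairs -0.138 to 0.102), and the block moved the ATAC counts from 7817, 7708 and 3117 to 7818, 7696 and 3136.

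Called sites in Pax5-KO were 5017 with TMM scaling and 3915 with DESeq2. With only sites of a peak score at or above the median, which tests fewer sites, they were 4775, 4427 and 1926 in the 3 comparisons. Member sites that fell in Ebf1-KO, 17 by the deposited scaling, were 7 with quantile normalization and 8 with DESeq2 (3128 and 3506 of all 14365 did). Those that rose were 4 with TMM scaling, 5 with quantile normalization, 4 with edgeR and 3 with DESeq2 (2913, 3780, 3110 and 2748 of all). In Pax5-KO 7 fell with TMM scaling, 6 with quantile normalization, 7 with edgeR and 4 with DESeq2 (3047, 2714, 3172 and 2492 of all). With the first 3 of these settings 1, 4 and 2 rose (1970, 3094 and 2242 of all). Member sites higher in Ebf1-KO than in Pax5-KO were 4 with quantile normalization (1326 of all). They were 1 each with a pseudocount of 5, DESeq2 and the peak score filter (1101 and 1560 of all, and 641 of 7291). With a library left out they were 0 to 3, with 0 without Pax5-KO 3 and 1 without Ebf1-KO 2 (819 and 862 of 14359). The Foxo3 intron 2 site in Ebf1-KO changed sign, to 0.147 with TMM scaling, 0.0439 with quantile normalization, 0.0647 with a pseudocount of 0.5, 0.165 with edgeR, 0.171 with DESeq2 and 0.305 with the peak score filter (-0.135 to 0.117 with a library left out). On the recovered reads edgeR called 7379, 6401 and 5184 genes and 7462, 5414 and 3814 sites. For these changes the cause was not tested. Few reads limit the weaker sites.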
